A study of Mus musculus with 6 samples.

Results

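The genes described here are 37 genes of the blood vessel wall and of vessel growth, measured in mouse heart. They were taken from a fixed list by name, and every probe set annotated to exactly 1 of them was used, which gave 66 of the 34945 probe sets with a single gene and 37 of 18193 genes. They fall into 4 arms, with 20 endothelial genes, 6 smooth muscle contractile genes, 6 pericyte genes and 5 ligands of the Vegf and angiopoietin families. RNA came from heart tissue of C57BL/6 mice, 3 arrays from mice overexpressing hAT1R, a human receptor for angiotensin II, a peptide that constricts vessels, and 3 from normal mice, both of the same strain background by the labels. Age and sex were matched according to the series design. The sources used here give no ages, no promoter for the transgene and no number of mice behind each array. A p-value therefore reflects only the spread between these arrays, part of which may be technical. Whole heart was measured, so for every gene fewer cells of a type and less RNA per cell cannot be told apart.

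Endothelial cells line all vessels and make up a large share of the cells of the heart, where each muscle fibre lies beside capillaries. They respond to Vegf ligands through the tyrosine kinase receptors Kdr and Flt1 and to angiopoietins through the receptor Tek, while Angpt1 made by neighbouring cells keeps the lining quiet and Angpt2 opposes it. Pericytes sit on capillaries and are held there by Pdgfb from the endothelium acting on Pdgfrb, and smooth muscle cells wrap arteries and hold their tone with a contractile apparatus that includes Myh11, Tagln and Cnn1.

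Values were log2 levels per probe set, and the median over all probe sets lay between 3.25 and 3.31 on the 6 arrays. The instrument's records carried the opposite word on every array: "transgene" was typed for the 3 non-transgenic ones by label, and "control" for the 3 transgenic ones. Groups follow the sample labels, "labelled transgenic" is written for that reason, and every sign given here would turn if the typed words were right. Fluidics station 2 washed the labelled transgenic arrays together with non-transgenic array 1, and station 3 washed non-transgenic arrays 2 and 3. The transgenic arrays by label were also all scanned first, so scan order and group cannot be told apart. Xist, the RNA of the inactive X chromosome, was at 9.02 and 9.09 on labelled transgenic arrays 1 and 3, at 9.72 on non-transgenic array 2 and between 2.57 and 2.69 on the others, so both groups held both sexes. More labelled transgenic than non-transgenic arrays had high Xist, so the arrays were not balanced for sex, though the series design names it as matched. As a gauge of RNA integrity, the actin control probe at the 3' end exceeded that at the 5' end by 0.879 ± 0.074 log2 units (SD, n = 3) on labelled transgenic arrays and by 1.01 ± 0.04 on the others. A 2-sided exact permutation test gave p = 0.1, and 3 against 3 can give no smaller value. For the Gapdh control it was 0.113 ± 0.003 against 0.132 ± 0.028 (2-sided exact permutation p = 0.4), and the part of RNA integrity in the vessel gene values was not tested.

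No vessel gene passed the test between the groups. Probe sets brighter on average than log2 3.285, the median of all probe set means, were tested, and 62 of the 66 probe sets and 36 of the 37 genes did so. In limma's moderated test over all 22518 probe sets kept, none of the 62 reached an adjusted p under 0.05, where 0.218% of all probe sets (49) did. The smallest adjusted p among them was 0.102. At an unadjusted p under 0.05 there were 12 of 62, or 19.4%, against 16.4% of all probe sets. Of these 12, 10 were lower in the labelled transgenic group (16.1% of 62, against 6.98% of all) and 2 were higher, where the background was 9.41%. At 11 probe sets (17.7%) the ranges of the groups were apart, against 23% of all. The count of 49 over the whole array was not stable when single arrays were left out. It was 75 when labelled transgenic array 1 was dropped, 5 for non-transgenic array 1 and 0 for each of the other 4. Such fits also have fewer arrays to test with, so the counts do not show that the calls came from single arrays. The count of vessel probe sets stayed at 0 in each of these fits.

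The 95% intervals given here are those of single probe sets in the fit without a block. They are not adjusted for the number of probe sets tested, so one can exclude 0 for a gene that did not pass. With 1 probe set per gene, the brightest, 24 of 36 genes had a negative change and 12 a positive change, where 47.5% of all probe sets had a negative one. With the station as a block 12 of the 36 signs turned, against 20.6% of all probe sets. For 15 of the 36 the 95% interval lay within 0.5 of 0 on the log2 scale, and for 31 within 1. The 5 that reached past 1 in size were Apln, Aplnr, Sox17, Cnn1 and Angpt1, which are described below with their array values. The median change was -0.15 over the 20 endothelial genes, -0.26 over the 5 smooth muscle genes tested, -0.085 over the 6 pericyte genes (0.0036 without non-transgenic array 2) and 0.059 over the 5 ligands, beside 0.0097 over all probe sets. Blocking the station gave medians of 0.073, -0.14, -0.027 and 0.037 in that order. The endothelial median lay between -0.22 and -0.082 with single arrays left out, the latter without non-transgenic array 2, and was -0.087 without labelled transgenic array 1. The smooth muscle median was the change of Cnn1, a gene with a wide spread. It was -0.22 under a brightness filter of log2 5. Without non-transgenic array 1 it was -0.40, and without non-transgenic array 2 it was -0.19.

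**Figure D1:**
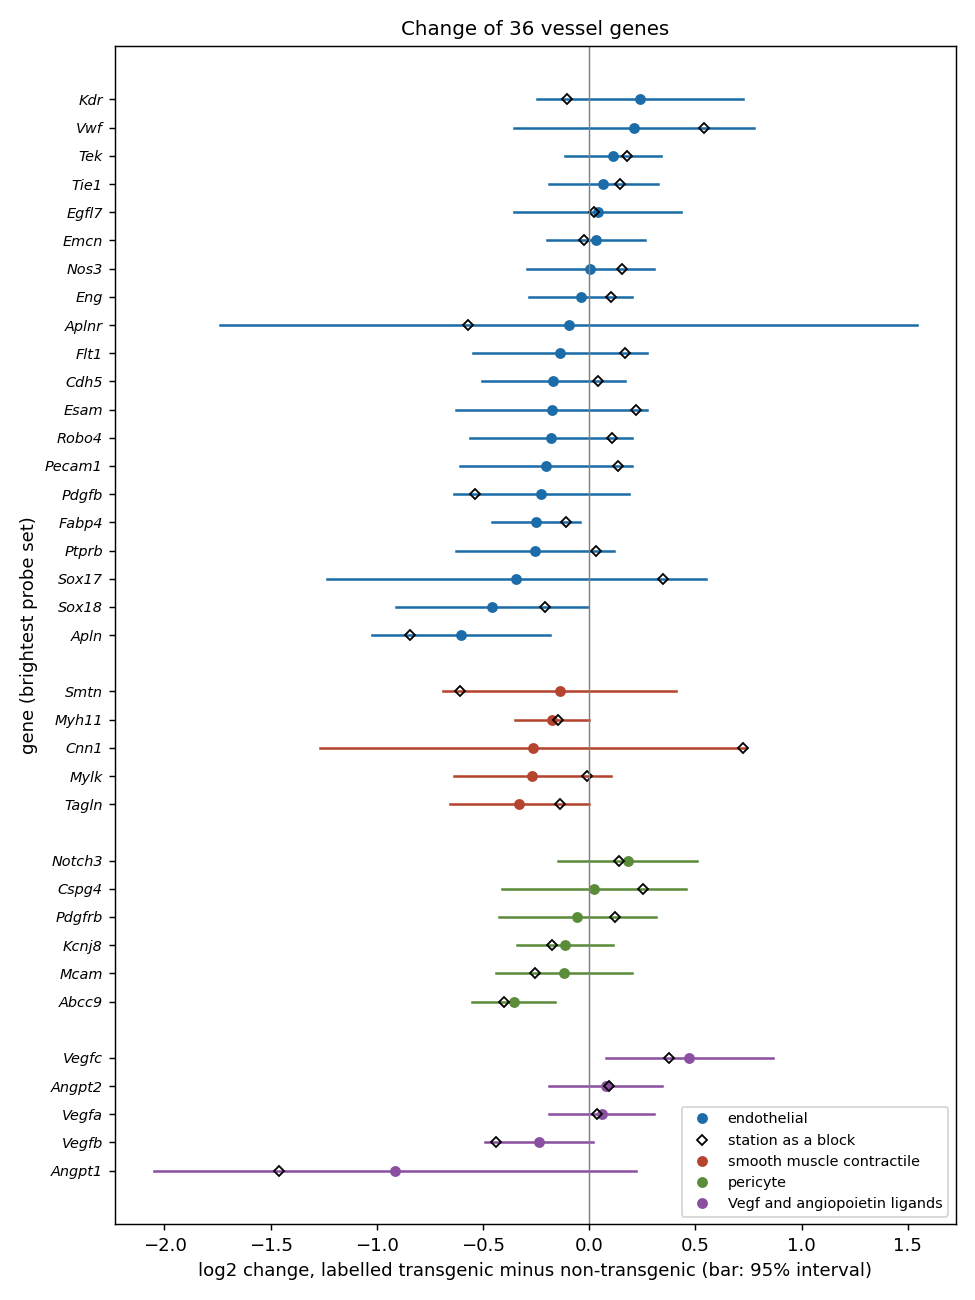
Log2 change of the 36 vessel genes tested, labelled transgenic minus non-transgenic, 1 row per gene, with the 95% limma interval as a bar and the change with the fluidics station as a block as an open diamond. Most bars span 0, the bar of Abcc9 runs from -0.55 to -0.16, and the diamonds of many endothelial genes lie on the other side of 0 from their points.

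Among the endothelial genes, Apln, Fabp4 and Sox18 had unadjusted p-values under 0.05, all with lower means in the labelled transgenic group. Apln encodes apelin, a peptide that endothelial cells secrete and that acts on the receptor Aplnr. Apln read 6.12, 6.29 and 6.66 on labelled transgenic arrays 1, 2 and 3, and 7.20, 6.82 and 6.86 on non-transgenic arrays 1, 2 and 3. The groups did not overlap, and the change was -0.60 ± 0.17 (SE), a level 1.52 times as high in the non-transgenic group, with adjusted p = 0.183. With the station as a block it was -0.84, and the highest value, 7.20, came from the non-transgenic array of station 2.

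Fabp4 is a fatty acid-binding protein of capillary endothelium that fat cells and macrophages make as well. Its brightest probe set read 14.28, 14.35 and 14.27 on the labelled transgenic arrays and 14.41, 14.63 and 14.61 on the others, a change of -0.25 ± 0.08 (adjusted p = 0.234). This probe set lies near the top of the scale, and the dimmer ones gave larger changes. The dimmest read 7.24, 7.46 and 7.29 against 7.98, 7.90 and 7.71, at -0.53 ± 0.10, with the smallest adjusted p of all vessel probe sets, 0.102. The next brighter one read 8.89, 9.02 and 8.73 against 9.37, 9.33 and 9.58, at -0.54 ± 0.11 (adjusted p = 0.111). In both of these the groups were apart, and with the station as a block they were at -0.65 and -0.49. The remaining Fabp4 probe set was at -0.30 ± 0.13 and its groups overlapped. The block left this one at -0.042 and the brightest at -0.11. The fat cell genes Adipoq, Lep, Cidec and Retn were all below the brightness filter, and Adipoq read 2.14, 2.15 and 2.15 on the labelled transgenic arrays and 2.11, 2.21 and 2.17 on the others. Of the fat cell list only Lpl and Pparg were tested, with a median change of -0.048 by the brightest probe set. Of their 3 tested probe sets 1 was apart and higher in the labelled transgenic group, against 13.2% of all probe sets. The part of fat cells in the Fabp4 values was not tested.

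Sox18 and Sox17 are related transcription factors of the endothelium, Sox17 being one of arteries. Sox18 read 9.16, 9.33 and 9.75 on the labelled transgenic arrays and 9.62, 9.94 and 10.06 on the others, a change of -0.46 ± 0.19 (adjusted p = 0.299). Its groups overlapped, with labelled transgenic array 3 above non-transgenic array 1, and blocking the station gave -0.21. Sox17 read 7.88, 6.97 and 7.07 against 6.96, 8.03 and 7.96, a change of -0.34 ± 0.37 (adjusted p = 0.69). Its 6 values formed a high and a low set that ignored the group labels, with labelled transgenic array 1 beside the station 3 arrays, and the other Sox17 probe set read 7.60, 6.85 and 6.92 against 7.12, 7.68 and 7.57.

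The receptors of the Vegf and angiopoietin ligands had no unadjusted p under 0.05. Kdr, the main signalling receptor for Vegfa, was at 8.89 ± 0.25 (SD, n = 3) with the transgenic label and 8.65 ± 0.32 without it, and Flt1, which binds Vegfa and Vegfb, at 9.21 ± 0.15 against 9.35 ± 0.30. The 95% interval of the change ran from -0.25 to 0.73 for Kdr and from -0.55 to 0.27 for Flt1. Tek, the angiopoietin receptor, was at 9.61 ± 0.13 against 9.50 ± 0.08 and its relative Tie1 at 8.28 ± 0.14 against 8.21 ± 0.12, with intervals from -0.12 to 0.34 and from -0.19 to 0.32. Ptprb, a phosphatase that acts on Tek and Cdh5, was at 10.63 ± 0.17 against 10.88 ± 0.25. Eng, a co-receptor for TGF-beta family ligands, was at 10.16 ± 0.12 against 10.20 ± 0.13, and Robo4, a guidance receptor of endothelium, at 7.91 ± 0.17 against 8.10 ± 0.26. For each of these genes the groups overlapped.

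The adhesion and identity genes of the endothelium also overlapped between groups. Pecam1, the junctional protein CD31, was at 9.53 ± 0.13 against 9.73 ± 0.31 and Cdh5, the cadherin of endothelial junctions, at 8.51 ± 0.19 against 8.68 ± 0.19. Esam, another junction protein, was at 10.10 ± 0.13 against 10.27 ± 0.35, and the sialomucin Emcn at 9.08 ± 0.14 against 9.05 ± 0.08. Vwf, the clotting glycoprotein stored in endothelial granules, was at 9.63 ± 0.25 against 9.41 ± 0.41 and Nos3, the endothelial nitric oxide synthase, at 7.58 ± 0.19 against 7.58 ± 0.13. Egfl7, a secreted endothelial protein, was at 9.48 ± 0.30 against 9.44 ± 0.12, and Pdgfb, the growth factor that recruits pericytes, at 8.47 ± 0.21 against 8.69 ± 0.27. With the station as a block Vwf was at 0.54 and Pdgfb at -0.54, in place of 0.21 and -0.23, while the other Pdgfb probe set was at -0.09 and at 0.06 with that block.

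Aplnr, the receptor for apelin, varied widely between arrays of a group, and is named for that spread, a choice made after its values were seen. Its brightest probe set read 8.08, 9.33 and 10.84 on labelled transgenic arrays 1, 2 and 3, and 9.99, 9.28 and 9.27 on the others. The second Aplnr probe set showed the same order within the labelled transgenic group, at 5.38, 6.26 and 7.40, against 6.94, 5.78 and 6.34. The pooled SD within groups of the brightest probe set was 1.02, at the 99.7th percentile of all probe sets tested. The change was -0.096 with a 95% interval from -1.74 to 1.54, and dropping labelled transgenic array 1 gave 0.57, dropping array 3 of that group -0.81 and dropping non-transgenic array 1 0.14.

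The sign of many endothelial changes depended on the fluidics station as a block, a comparison in which non-transgenic array 1 alone stands for its group. In 14 of the 20 endothelial genes non-transgenic array 1, of station 2, lay below both non-transgenic arrays of station 3, against 36% of all probe sets, and in 5 it lay above both, against 38.6%. With the station as a block the sign of the change turned in 10 of the 20 genes, against 20.6% of all probe sets, and the median went from -0.15 to 0.073. Taken by the brightest probe set, those 10 were Pecam1, Cdh5, Kdr, Flt1, Eng, Esam, Emcn, Sox17, Robo4 and Ptprb. The second probe set of Cdh5 kept its sign, at 0.14 and at 0.11 with the block. That of Eng did so too, at -0.18 and -0.018, while the other tested probe sets of Flt1, Sox17 and Ptprb turned. The genes that kept a negative sign were Apln, Fabp4, Sox18, Aplnr and Pdgfb, and Tek, Tie1, Vwf, Egfl7 and Nos3 kept a positive one. Changes within station 2 alone equal these by construction, since station 3 held a single group, and station 2 held 1 non-transgenic array. No vessel probe set reached an adjusted p under 0.05 in limma with the block, where 0.00888% of all probe sets did, and 10 of 62 had an unadjusted p under 0.05, against 16.4% of all.

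**Figure D2:**
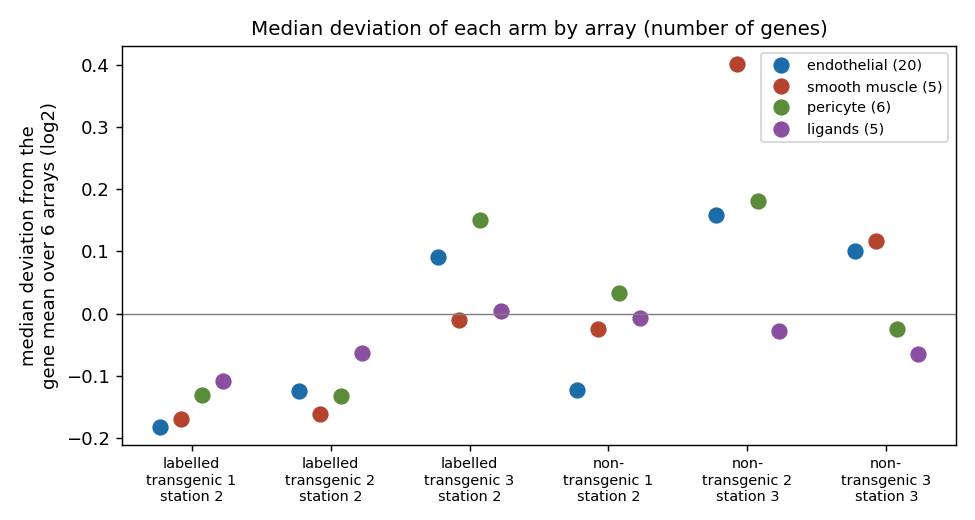
Median deviation of each arm's genes from their own mean over the 6 arrays (log2), 1 point per arm and array, with the fluidics station under each array. The endothelial points of non-transgenic arrays 2 and 3 lie at 0.16 and 0.10, that of non-transgenic array 1 at -0.12, and those of the labelled transgenic arrays at -0.18, -0.12 and 0.09.

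Of the 6 smooth muscle contractile genes, 5 were tested and all 5 had a negative change, where 47.5% of all probe sets did. Tagln, the actin-binding protein transgelin, read 8.47, 8.58 and 8.76 on the labelled transgenic arrays and 8.74, 9.17 and 8.88 on the others, a change of -0.33 ± 0.13 (adjusted p = 0.304). Myh11, the myosin heavy chain of smooth muscle, read 8.18, 8.11 and 8.26 against 8.33, 8.34 and 8.41, a change of -0.18 ± 0.07 (adjusted p = 0.301). The Myh11 groups did not overlap and those of Tagln did, by the highest labelled transgenic value against the lowest non-transgenic value. Both had an unadjusted p under 0.05, and with the station as a block they were at -0.14 for Tagln and -0.15 for Myh11.

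The other contractile genes showed no common pattern over the arrays. Mylk, the kinase that switches on myosin in smooth muscle, read 7.48, 7.30 and 7.33 against 7.38, 7.95 and 7.59, a change of -0.27 ± 0.15 (adjusted p = 0.444), which became -0.011 once the station was blocked. The other tested Mylk probe set kept its change, at -0.28 and at -0.31 with that block. Cnn1, the thin filament protein calponin, read 4.32, 4.33 and 4.42 on the labelled transgenic arrays, and 3.63, 5.30 and 4.94 on the others. The labelled transgenic values of Cnn1 thus lay between non-transgenic array 1 and the station 3 arrays, and its change of -0.26 ± 0.41 became 0.73 with the station as a block. Leaving out non-transgenic array 1 gave -0.76 for Cnn1 and leaving out non-transgenic array 2 gave 0.073. Smtn, the cytoskeletal protein smoothelin, was at 8.76 ± 0.23 against 8.89 ± 0.41, with its highest value, 9.36, on non-transgenic array 1, and at -0.61 with the station as a block. Lmod1, an actin nucleator of smooth muscle, was below the brightness filter, at 2.71 ± 0.02 against 2.71 ± 0.02, and was not tested.

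Abcc9 had the smallest p among the pericyte genes. It encodes a sulfonylurea receptor subunit of ATP-sensitive potassium channels, which heart muscle cells make as well as pericytes. Its brightest probe set read 12.21, 12.07 and 12.24 on the labelled transgenic arrays and 12.57, 12.57 and 12.44 on the others. The groups did not overlap, and the change was -0.36 ± 0.08, a level 1.28 times as high in the non-transgenic group (adjusted p = 0.13). Its other probe sets read 11.75, 11.56 and 11.69 against 12.12, 11.95 and 11.98, and 10.99, 10.67 and 10.86 against 11.28, 11.14 and 11.04. All 3 Abcc9 probe sets were thus lower on each labelled transgenic array than on any non-transgenic array, and with the station as a block they were at -0.40, -0.45 and -0.44.

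Kcnj8, which encodes the pore subunit that pairs with Abcc9 in vessels, was at 9.07 ± 0.15 against 9.19 ± 0.05, a change of -0.12 ± 0.09 (adjusted p = 0.592). Its arrays read 8.96, 9.03 and 9.24 against 9.25, 9.16 and 9.16, so labelled transgenic array 3 lay among the non-transgenic ones. Notch3, the Notch receptor of mural cells, read 8.40, 8.21 and 8.60 against 8.26, 8.37 and 8.03, a change of 0.18 ± 0.14 (adjusted p = 0.561), and its other probe set was at 0.27, which became -0.15 once the station was blocked. Mcam, an adhesion molecule of mural and endothelial cells, read 6.79, 7.01 and 7.07 against 7.22, 7.18 and 6.84, at -0.12 ± 0.13. Pdgfrb, the receptor for Pdgfb, was at 9.64 ± 0.19 against 9.69 ± 0.23 and the proteoglycan Cspg4 at 7.29 ± 0.29 against 7.27 ± 0.22. The second probe set of each was at -0.021 and 0.027, near the first, and the 95% interval of the second Pdgfrb probe set ran from -0.24 to 0.20.

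Among the ligands, Vegfc was the single gene with a higher mean in the labelled transgenic group and an unadjusted p under 0.05. Vegfc, which acts mainly on lymphatic vessels through the receptor Flt4, read 7.00, 6.58 and 7.05 on the labelled transgenic arrays and 6.50, 6.53 and 6.18 on the others. Its groups did not overlap, and the change was 0.47 ± 0.16, or 1.39-fold (adjusted p = 0.241). The other Vegfc probe sets were at 0.44 ± 0.17 and 0.38 ± 0.18, the first without overlap, and with the station as a block the brightest was at 0.37. Flt4 was at 7.92 ± 0.01 against 7.72 ± 0.16 and also without overlap, with adjusted p = 0.358, and its change of 0.20 became 0.050 once the station was blocked, while its dimmer probe set was at -0.028.

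Angpt1 had the largest change of all vessel genes and a wide spread. Its brightest probe set read 9.05, 7.73 and 7.49 on labelled transgenic arrays 1, 2 and 3, and 9.55, 8.48 and 9.00 on the others, a change of -0.92 ± 0.47 (adjusted p = 0.393). Arrays 2 and 3 of the labelled transgenic group lay below every other array, and array 1 lay among the non-transgenic ones. The second Angpt1 probe set read 7.49, 5.63 and 5.31 against 7.90, 6.15 and 7.52, with the same 2 arrays lowest. Without labelled transgenic array 1 the change of the brightest probe set was -1.40, and with the station as a block it was -1.46. The pooled SD within groups was 0.705, at the 99.2th percentile of all probe sets tested.

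Vegfb, a ligand of Flt1 that heart muscle makes in quantity, read 11.54, 11.57 and 11.49 on the labelled transgenic arrays and 11.97, 11.63 and 11.71 on the others. The groups did not overlap, the change was -0.24 ± 0.10 (adjusted p = 0.334), and with the station as a block it was -0.44. Vegfa, the main growth factor of blood vessels and a target of hypoxia signalling, was at 10.03 ± 0.16 against 9.98 ± 0.08, a change of 0.059 with a 95% interval from -0.19 to 0.31. Its other probe set was at 0.15, and in both the groups overlapped. Angpt2 was dim, at 3.84 ± 0.20 against 3.76 ± 0.04. The median of the ligand arm, 0.059, was -0.089 under a brightness filter of log2 5, which leaves out Angpt2, and fell on either side of 0 with single arrays left out, so no direction is read from it.

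**Figure D3:**
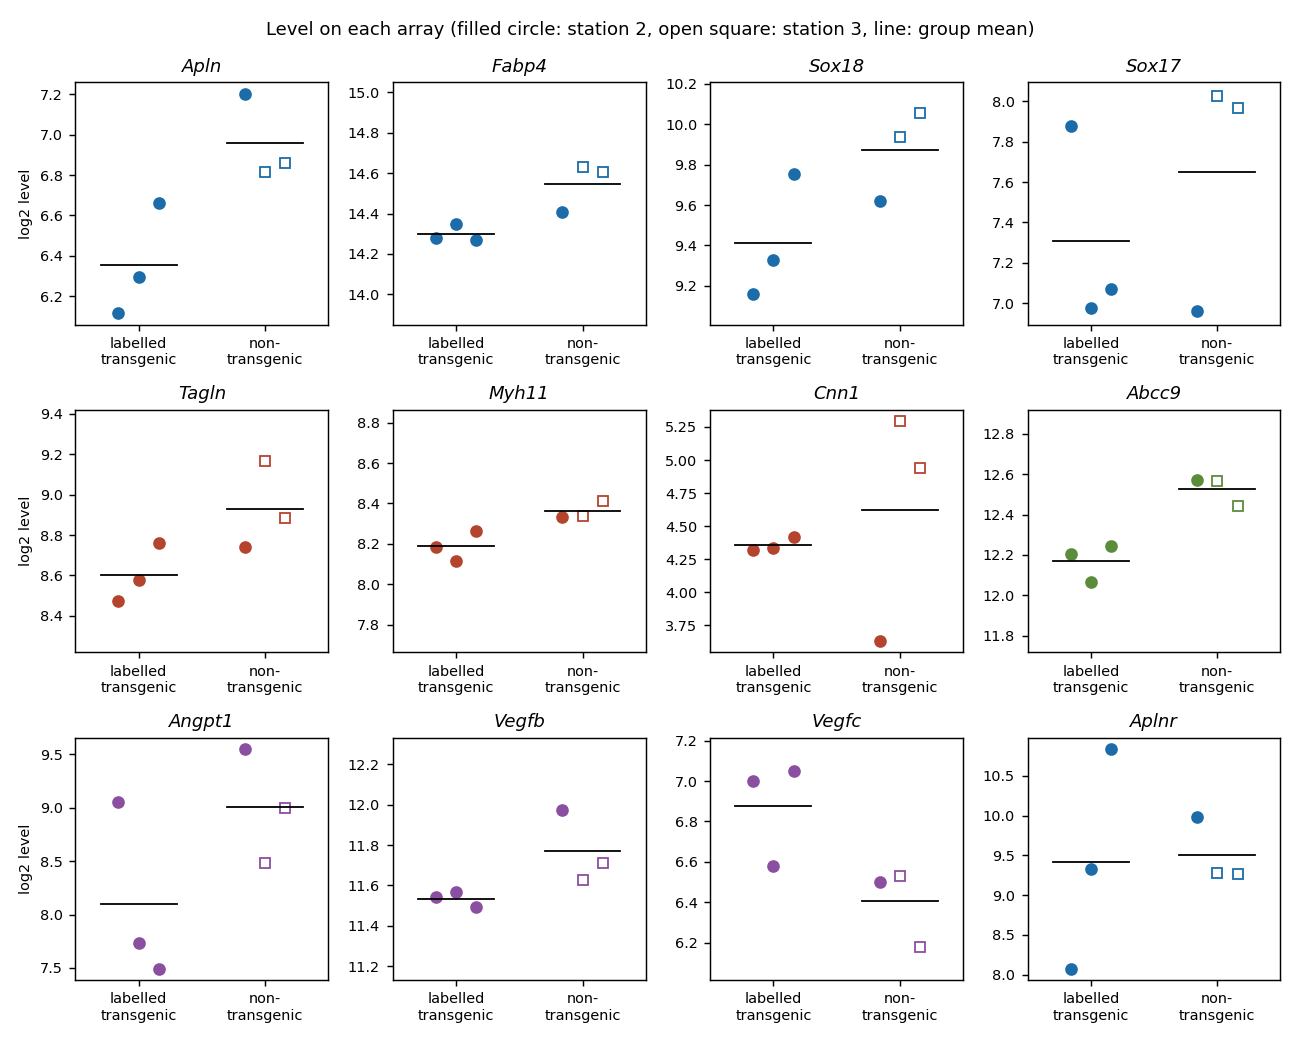
Log2 level of 12 vessel genes on each array (brightest probe set), with station 2 arrays as filled circles, station 3 arrays as open squares and the group mean as a line. The groups are apart in Apln, Fabp4, Myh11, Abcc9, Vegfb and Vegfc, while in Sox17 and Cnn1 the station 3 arrays lie above non-transgenic array 1, and Aplnr spreads from 8.08 to 10.84 within the labelled transgenic group.

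Several probe sets measured the same gene in 18 cases, and 15 of these 18 genes had a single sign over their tested probe sets. The exceptions were Cdh5, at -0.17 and 0.14, Egfl7, with 4 probe sets from -0.34 to 0.06, and Angpt2, at 0.077 and -0.014. The 4 Flt1 probe sets ran from -0.14 to -0.04, and the 2 Sox17 probe sets were at -0.34 and -0.33. The 3 Abcc9 probe sets lay within 0.05 of each other.

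**Figure D4:**
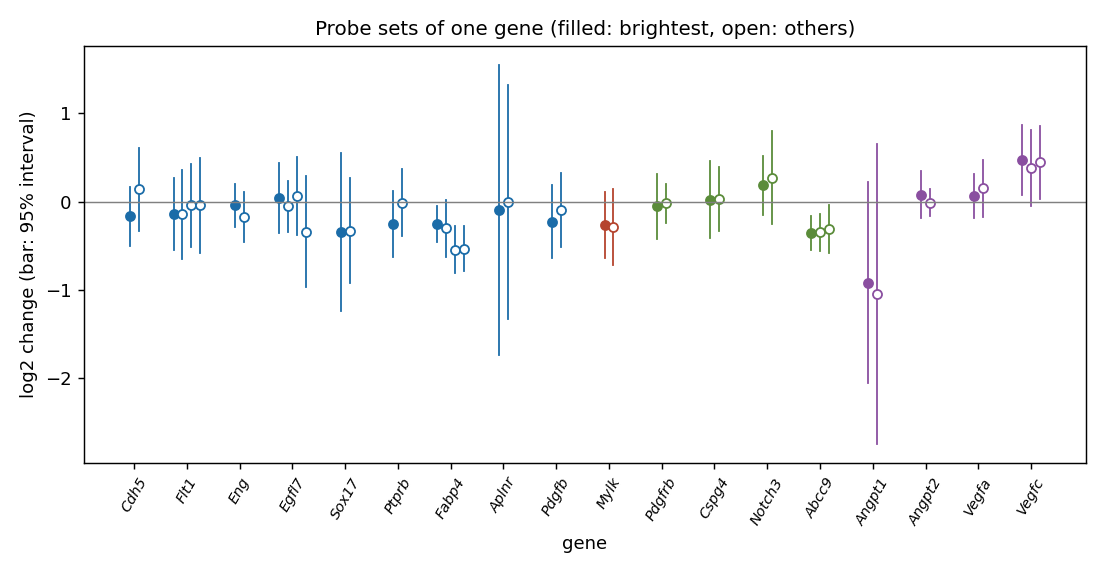
Log2 change with its 95% interval for every tested probe set of the 18 genes that have several, in blue for endothelial, red for smooth muscle, green for pericyte genes and purple for ligands. The Abcc9, Fabp4, Angpt1 and Vegfc probe sets of a gene lie on the same side of 0, and the widest intervals belong to Aplnr and Angpt1.

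The spread within groups differed among the vessel genes. The median percentile of that spread, among all probe sets tested, was 76.9 for the endothelial genes, 72.8 for the smooth muscle, 64.5 for the pericyte genes and 49.3 for the ligands. Aplnr, Angpt1, Cnn1 (98.7) and Sox17 (98.0) had the widest spread for a gene's brightest probe set, and Myh11 (12.0) the narrowest.

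**Figure D5:**
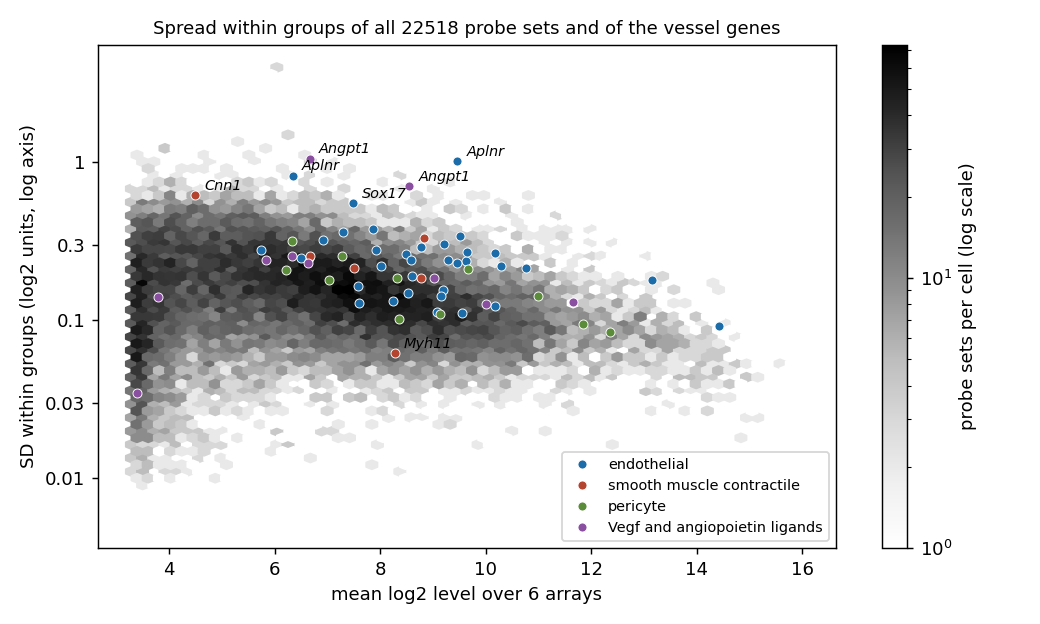
Pooled SD within groups (log2 units, log axis) against mean level for all 22518 probe sets tested, shaded by their number, with the tested probe sets of the vessel genes as coloured points. Both probe sets of Aplnr and of Angpt1 lie at the upper edge, and Myh11 lies below the other vessel genes of like level.

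Other genes of the same pathways were read from lists chosen by function, and none of the 78 genes tested in them passed in limma at an adjusted p under 0.05. Of 25 other endothelial genes, 23 were tested, of which 1 had an unadjusted p under 0.05 with a positive change and 1 with a negative change (16.4% of all probe sets in either direction), and their median change was 0.057. The change was positive in 14 of the 23 and negative in 9, where the endothelial arm had 7 positive and 13 negative. The groups were apart in 2 of the 23, both higher, where 13.2% of all probe sets were apart in that direction. Calcrl, the receptor that pairs with Ramp2 to bind adrenomedullin, read 7.94, 8.01 and 7.99 against 7.56, 7.82 and 7.55, a change of 0.34 ± 0.09 (adjusted p = 0.176), while a dimmer Calcrl probe set was at 0.020. Ramp2 itself was at -0.37 ± 0.15 (adjusted p = 0.3), and at -0.083 with the station as a block. Of 14 Notch and artery genes, 13 were tested with a median of 0.044, and Heyl, a target of Notch signalling in mural cells, was at 0.32 ± 0.10 (adjusted p = 0.206), followed by the Notch ligand Dll4 at 0.38 ± 0.19 (adjusted p = 0.383).

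The 17 other smooth muscle genes tested, of 19 listed, had a median change of 0.013, in place of -0.26 for the contractile arm. At an unadjusted p under 0.05 there were 5 of 17, against 16.4% of all probe sets, and 3 of the 5 had a positive change. Myl9, the regulatory light chain of smooth muscle myosin, read 8.31, 8.36 and 8.53 against 8.63, 9.00 and 8.69, a change of -0.37 ± 0.12 (adjusted p = 0.228). Des, the intermediate filament desmin of all muscle, which heart muscle cells hold in bulk, was at 13.32 ± 0.07 against 13.02 ± 0.02, a change of 0.30 ± 0.07 (adjusted p = 0.13). The 10 other pericyte genes tested, of 12 listed, had a median of -0.032, and 4 of 10 had an unadjusted p under 0.05, against 16.4% of all probe sets. A negative change was seen in 3 of these 4, against 6.98% of all probe sets in that direction. Vtn, the matrix protein vitronectin made by pericytes, read 7.25, 7.37 and 7.86 against 8.38, 8.06 and 8.39, without overlap, a change of -0.78 ± 0.18 (adjusted p = 0.14) and -0.89 with the station as a block. Colec11, a soluble lectin, was at 0.35 ± 0.11 (adjusted p = 0.224), while Rgs5, a regulator of G protein signalling typical of pericytes and named after its values were seen, was at 13.42 ± 0.03 against 13.44 ± 0.09.

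Of the other angiogenic ligands and inhibitors, 15 were tested with a median of -0.076, and 3 of 15 had an unadjusted p under 0.05, near the 16.4% of all probe sets, of which 2 had a negative change. Sema3c, a guidance ligand, read 7.58, 7.95 and 8.05 against 7.45, 7.17 and 7.15, a change of 0.60 ± 0.15 (adjusted p = 0.152), while its dimmer probe set was at 0.037. Fgf1, a growth factor for endothelium and other cells, read 11.62, 11.31 and 11.25 against 11.81, 11.73 and 11.85, a change of -0.40 ± 0.11 (adjusted p = 0.176). In both genes the groups were apart, and with the station as a block they were at 0.41 and -0.42.

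Of the markers of other cell types, Nppa, a natriuretic peptide of heart muscle, was the single gene that passed in limma, and no fibroblast or macrophage marker did. All 12 heart muscle markers were tested and were bright, with a mean level between 14.76 and 14.94 over the arrays, as the heart label requires, and Nppa was at 2.19 ± 0.17 (adjusted p = 0.0257, and 0.0139 to 0.169 over the alternatives). Of these 12 genes 7 had a negative change, 4 were apart and lower and 2 apart and higher, and their median change was -0.032. Over their 29 tested probe sets 11 were apart and lower, against 9.78% of all, and 2 apart and higher, against 13.2%. In limma 6 of the 29 had an unadjusted p under 0.05, against 16.4% of all, and 5 of the 29 were lower at that threshold, against 6.98%. By the brightest probe set of each gene, 0 of the 12 heart muscle markers were lower at that threshold and 1 was higher. Abcc9 and Vegfb, which heart muscle also makes, had negative changes, while Des, which heart muscle holds in bulk, had a positive one. The part of heart muscle RNA in the values of these genes was not tested. Of 12 fibroblast markers 10 had a positive change and 7 did not overlap between groups, all higher, where 13.2% of all probe sets were apart in that direction. Their mean level ran from 9.38 to 9.94 on the labelled transgenic arrays and from 8.95 to 9.37 on the others, and Dcn and Pdgfra led by p, at 0.38 ± 0.06 (adjusted p = 0.078) and 0.68 ± 0.14 (adjusted p = 0.109). Of 11 macrophage markers tested 10 had a positive change, where 47.5% of all probe sets had a negative one. Of these 11 markers 9 were apart, all higher, against 13.2% of all probe sets. Their mean level ran from 8.24 to 8.26 against 7.53 to 7.68. Adgre1 and Cd68 led by p, at 0.68 ± 0.10 (adjusted p = 0.0695) and 0.96 ± 0.20 (adjusted p = 0.113). In the endothelial arm, by comparison, 2 of 20 genes were apart, both lower, where 9.78% of all probe sets were apart in that direction. The mean level of the 20 genes ran from 9.08 to 9.38 on the labelled transgenic arrays and from 9.20 to 9.38 on the others. Whether the fibroblast and macrophage markers had a part in the vessel gene values was not tested. Markers of lymphatic endothelium, endocardium, lymphocytes and red cells had median changes of 0.19, 0.081, 0.034 and -0.11, and none of their members passed. The smallest p-values in these lists belonged to Flt4 (0.20) and Pdpn (0.60) for lymphatic endothelium and to Npr3 (0.48, adjusted p = 0.13) and Plvap (0.13) for endocardium, with the change in brackets. For the lymphocyte list they belonged to Ptprc (0.31), which other white blood cells make as well, and Cd4 (-0.074). For red cells they belonged to Alas2 (-0.20) and Slc4a1 (-0.025). Sox10 was the 1 marker of Schwann cells and neurons tested, at 4.42 ± 0.09 against 4.30 ± 0.07.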

How the data were processed

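Affymetrix Mouse430_2 arrays measured RNA of mouse heart, labelled from 6 ug of total RNA per the labels' protocols. The authors deposited log2 values, 1 per probe set and array, and GCRMA, a background correction and normalization for such arrays, is named in the submitters' processing notes. The sources used here give no version for it and name no step after it. The deposited values were used unchanged. Of 45101 probe sets 64 controls were dropped. Genes were named through the 2016 annotation of the platform, with 34945 probe sets of 1 gene, 932 of several and 9160 of none. Any pair of arrays had at most 0.0177% of identical values.

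Probe sets above the median mean level, log2 3.285, were kept (22518). Differences were fitted with limma 3.58.1, run under R 4.3.3 (functions lmFit and eBayes, 2-sided, Benjamini-Hochberg over all kept probe sets, threshold 0.05), and values are given as change ± SE. The fit was tested on simulated data with independent noise and no station or sex effect. Recovery was required only for the largest planted changes, which exceeded every vessel gene change. That run therefore does not show how well changes of the size seen here are found. The vessel genes and lists were chosen with earlier results of these data known. Values on every array are given for vessel genes with an unadjusted p under 0.05 and for the 3 largest changes of each arm, and for each other list the genes that passed are named, or else the 2 with the smallest p. Sex was handled with the Xist level as a term and the station with values within station 2, both chosen after seeing the data. Promoter or protein sequences were not used here.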

Additional observations from a re-analysis of the deposited data

How the results depend on the processing

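The count of vessel probe sets that passed in limma was 0 in the reported fit and under all 17 alternatives, with 6 to 17 of them at an unadjusted p under 0.05. Over the whole array 49 probe sets passed. The count was 15 without the brightness filter, 143 with a filter at log2 5, 108 with a trended variance, 2 with the fluidics station blocked, 0 within station 2 and 0 with Xist as a covariate, and it ran from 0 to 75 with single arrays left out. With the replicate number as a block it was 0, with 12 vessel probe sets at an unadjusted p under 0.05; this block leaves the changes themselves as they are by construction. The deviations of same-numbered arrays correlated at -0.083, -0.17 and -0.0067, so the numbers were not taken to pair the arrays.

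For the brightest probe set of a gene, blocking the station, or using station 2 alone, put Pecam1 at 0.14, Cdh5 at 0.042, Kdr at -0.11, Flt1 at 0.17, Eng at 0.10, Esam at 0.22, Emcn at -0.024, Sox17 at 0.35, Robo4 at 0.11, Ptprb at 0.030, Cnn1 at 0.73 and Pdgfrb at 0.12, each opposite in sign to its reported change, and the endothelial median at 0.073. The second probe sets of Cdh5, Eng and Pdgfrb kept their sign, that of Pdgfrb at -0.0045. The cause of the turned signs was not tested. The ligand median was at -0.089 under the filter at log2 5, which tests fewer genes, and ran from -0.028 to 0.15 with single arrays left out. Signs turned for Nos3 under quantile normalization (-0.023) and array weights (-0.011), for Aplnr (0.093) and Cspg4 (-0.0071) under array weights, for Emcn (-0.0058) and Cspg4 (-0.064) with Xist as a covariate, and for Egfl7 as the mean of its probe sets (-0.075). With single arrays left out, these changes ran over both signs: Flt1 from -0.29 to 0.014, Eng from -0.11 to 0.027, Emcn from -0.033 to 0.10, Egfl7 from -0.13 to 0.17, Nos3 from -0.069 to 0.12, Aplnr from -0.81 to 0.57, Cnn1 from -0.76 to 0.073, Smtn from -0.29 to 0.096, Pdgfrb from -0.17 to 0.075, Cspg4 from -0.14 to 0.13, Angpt2 from -0.028 to 0.17 and Vegfa from -0.013 to 0.15. The 3 arrays a group, and the 1 non-transgenic array in station 2, limit the precision.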
